A study of Mus musculus with 4 samples.

Results

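Colonoids kept in butyrate were compared between 48 h and 72 h of treatment, across all genes, in the pair of libraries that received butyrate. Colonoids are grown from isolated crypts of the mouse colon, embedded in Matrigel, and hold stem cells together with their differentiating offspring. The pair makes up 2 of the 4 bulk RNA-seq libraries of the study, with 1 library at each time, and the remaining 2 libraries are untreated colonoids at the same times. Each is labelled as WT, male, aged 24 weeks and at passage 3. Every culture, untreated ones included, grew in crypt medium with B27, N2, EGF, Noggin and R-spondin, and with 3 μM CHIR99021 (an inhibitor of the kinase GSK3 that activates Wnt signalling) and 10 μM Y-27632, a kinase inhibitor. The treated cultures received 2 mM sodium butyrate, for 48 h (day 2) or 72 h (day 3), and the labels of the untreated libraries give day 2 and day 3. A figure legend of the study says that the organoids came from 1 mouse. With 1 library on each side there is no replicate check, and no difference could be tested.

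Butyrate is a short-chain fatty acid that gut bacteria make from dietary fibre. It is the preferred fuel of colonocytes, in which it is oxidised in mitochondria, and it also inhibits histone deacetylases and activates the cell-surface receptor FFAR2. In the colonic crypt, stem cells held by Wnt signals at the base divide and their progeny mature into absorptive colonocytes or, where the transcription factor ATOH1 is on, into secretory goblet, enteroendocrine and tuft cells.

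The total count was 24207840 at 48 h and 20790225 at 72 h with butyrate, and between 21567500 and 23578412 in the untreated libraries. Values below are counts divided by the size factor of their library (normalised counts). Changes are log2 ratios of 72 h over 48 h after adding 1 to each normalised count, and the range after each change is a 95% interval from the counts, which covers counting error only. The 9 epithelial marker genes (*Epcam*, *Cdh1*, keratins and others) summed to between 160352 and 176354 normalised counts in the 4 libraries, and none of them was at 0. Of 15 immune cell genes, 6 or 7 were at 0 in each library, and their sum was 1459 at 48 h and 851 at 72 h with butyrate and 743 and 810.0 untreated. With butyrate, *Cd68*, a lysosomal protein gene, made up 1188 and 454 of that sum, against 131 and 169.8 untreated. The part of other cells in the results was not tested. Of 15 fibroblast, muscle and endothelial genes, 3 to 6 were at 0, and their sums were between 349.7 and 445. The share of counts from the mitochondrial genome was 14.1% at 48 h and 16.3% at 72 h with butyrate, and 15.1% and 18.4% untreated. In bulk libraries, fewer cells of a type and less RNA of a gene per cell cannot be told apart.

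Of 36144 gene names, 11650 averaged 50 or more normalised counts over the 4 libraries and are the genes described here. With butyrate, 485 of them (4.16%) differed at least 2-fold between the times, 193 (1.66%) being higher at 72 h and 292 (2.51%) lower. Untreated, 186 genes (1.6%) differed at least 2-fold, 88 (0.755%) being higher and 98 (0.841%) lower. The log2 changes had an SD of 0.50 over genes with butyrate and of 0.36 untreated. Counting intervals excluded 0 for 3835 genes that were higher (32.9%) and 3939 that were lower (33.8%) with butyrate, so at this depth many small changes exceed counting error, which is not the error between cultures. Untreated, it excluded 0 for 2865 genes that were higher (24.6%) and 2688 that were lower (23.1%). For the gene lists below, the numbers of genes called higher or lower are those whose interval excluded 0, to be read against these shares. Across the 11650 genes, which are not independent replicates, the changes with and without butyrate had a Pearson's r of 0.148 and a Spearman correlation of 0.236. The pairs share no library, but they share the annotation and the scaling. Of the 193 genes, 29 were also at least 2-fold higher untreated, which is 15.03% of the 193 and 33.0% of the 88. Of the 292, 26 were also at least 2-fold lower untreated, which is 8.90% of the 292 and 26.5% of the 98.

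**Figure D1:**
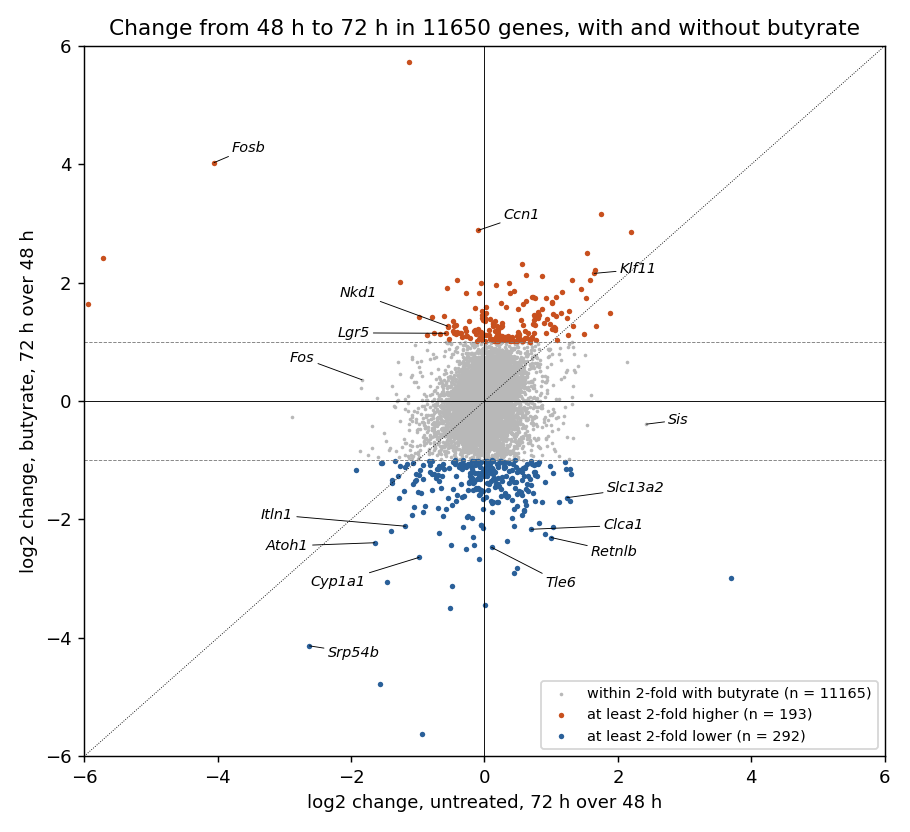
Each point is 1 of 11650 genes, with the log2 change from 48 h to 72 h untreated on the x axis and with butyrate on the y axis; orange and blue mark genes at least 2-fold higher (193) and lower (292) with butyrate, the dotted line is equal change, dashed lines are 2-fold, and 10 genes lie outside the axes. Most coloured points lie near the vertical axis, where the untreated cultures changed little, and *Fosb* lies far from equal change at upper left.

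Both butyrate libraries were often the extreme of the 4 for these genes. That of 48 h was the highest of the 4 libraries for 235 of the 292 lower genes (80.5%), against 31.9% of all genes, and the lowest for 160 of the 193 higher genes (82.9%), against 33.5%. That of 72 h was the lowest for 158 of the 292 (54.1%), against 24.9% of all genes, and the highest for 119 of the 193 (61.7%), against 22.5%. Choosing genes by this contrast favours such a pattern, so the shares are a description. The butyrate library was within 2-fold of the untreated one of its time for 137 of the 292 lower genes at 48 h and 190 at 72 h, and for 127 and 157 of the 193 higher genes. Over all 11650 genes this held for 11012 at 48 h and 11192 at 72 h. Among the 193 genes, 169 were annotated as protein-coding and 24 as pseudogenes, and among the 292, 284 and 8, against 220 pseudogenes among all 11650. The change was at least 4-fold for 19 higher and 37 lower genes. Several of the extreme values belong to pseudogenes and predicted genes with 0 counts in at least 1 library, such as *Gm4070* (0 and 92 counts untreated, 235 and 0 with butyrate). Such genes were not ranked, and this one was picked out with its values known.

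The genes with the highest changes with butyrate included transcription factors, secreted proteins and regulators of the cytoskeleton. *Fosb*, a subunit of the AP-1 transcription factor (chr7:19302696-19310051 in GRCm38), had 38.1 normalised counts at 48 h and 637 at 72 h with butyrate, and 1278 and 76 untreated. Its change was 4.03 (3.61 to 4.55) with butyrate and −4.05 (−4.42 to −3.74) untreated, so the low libraries were butyrate at 48 h and untreated at 72 h. *Ccn1*, which encodes a secreted matricellular protein (chr3:145646976-145649981), had 91.6 and 684 with butyrate, and 377 and 354 untreated. Its change was 2.89 (2.59 to 3.22), and butyrate at 48 h was the single low library. *Ccn2*, which encodes a related matricellular protein, had 182 and 472 with butyrate, and 196 and 288 untreated, a change of 1.37 (1.13 to 1.62). *Amotl2*, of the angiomotin family of junction and polarity proteins, had 188 and 812 with butyrate, and 354 and 644 untreated, a change of 2.11 (1.89 to 2.34). *Wwtr1*, which encodes the transcriptional co-activator TAZ, had 148 and 423 with butyrate, and 137 and 241 untreated, a change of 1.51 (1.25 to 1.79). *Amotl2* and *Wwtr1* were thus higher at 72 h in both pairs, whereas *Ccn1* was higher with butyrate and had an untreated interval that included 0.

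Among the other genes of the 15 with the highest changes, *Klf11*, a Krüppel-like transcription factor, was higher at 72 h in both pairs, with 199 and 889.9 normalised counts with butyrate and 264 and 828 untreated. *Edn1*, which encodes endothelin 1, was higher in both pairs too, with 757 and 2527 with butyrate and 1405 and 2373 untreated. In both genes the libraries at 72 h were close and the butyrate library at 48 h was the lowest. *Enah*, a regulator of actin filament growth, had 89.8 and 359.7 with butyrate and 111 and 108 untreated, and the butyrate library at 72 h was the single high one. *Mbnl3*, a regulator of RNA splicing, behaved alike, with 142 and 432 with butyrate and 214 and 218 untreated. *Gpld1*, a phospholipase that releases GPI-anchored proteins, had 161 and 669.6 with butyrate and 737 and 554 untreated, and *Sult1c2*, a sulfotransferase, had 69.9 and 276 with butyrate and 389.6 and 437 untreated. For both, butyrate at 48 h was the low library. The remaining 5, *BC005561*, *Hao2*, *Lcor*, *Gsdmc2* and *Clcf1*, had changes between 1.53 and 1.82.

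The genes with the lowest changes were of several kinds. *Cyp1a1*, a cytochrome P450 induced through the aryl hydrocarbon receptor (chr9:57687928-57703824), had 942 normalised counts at 48 h and 150.1 at 72 h with butyrate, and 330.3 and 167 untreated, a change of −2.64 (−2.92 to −2.39). *Tle6*, of the Groucho family of co-repressors, had 718 and 129 with butyrate, and 52.1 and 56.3 untreated, a change of −2.47 (−2.77 to −2.20). *Ly6g6c*, of the Ly6 family of surface proteins, had 266 and 41 with butyrate, and 57.3 and 54.3 untreated, a change of −2.67 (−3.22 to −2.20). In all 3 genes the butyrate library at 48 h was the single high one. It was also the single high one for the galectin genes *Lgals1*, with 524 and 121 with butyrate and 36.8 and 50.4 untreated, and *Lgals2*, with 475 and 96.1 with butyrate and 114 and 101 untreated. *Cox7a1*, a subunit of cytochrome c oxidase, had 258 and 64.8 with butyrate and 69.5 and 61.2 untreated, and *Tm4sf5* had 634 and 173 with butyrate and 159.5 and 173 untreated. *Tle6*, *Ly6g6c*, *Lgals1* and *Cox7a1* passed the minimum mean of 100 for ranking through the butyrate library at 48 h, which favours this pattern.

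*Gstp2*, a glutathione S-transferase, had 7057 and 1647 normalised counts with butyrate and 939 and 909 untreated, a change of −2.10 (−2.18 to −2.02). Its neighbour and near copy *Gstp1* had 14604 and 6339.8 with butyrate and 5511 and 5813 untreated, so that the division of reads between the copies is uncertain but both were lower at 72 h with butyrate. *Srp54b*, of the signal recognition particle, had the lowest change of the ranked genes, −4.14 (−5.03 to −3.49), with 320.3 and 17.3 with butyrate and 248 and 39.5 untreated. It is uncertain too, since its near copies *Srp54a* and *Srp54c* had changes of 0.12 and 0.33. *Zswim3*, a zinc finger protein gene, had 181 and 38.9 with butyrate and 140.1 and 52.3 untreated. Genes with a mean between 50 and 100 normalised counts were not ranked, and among them *Mogat2*, an acyltransferase of fat absorption, had 224 and 29.2 with butyrate and 16.4 and 22.7 untreated. The complement gene *C3* had 220.5 and 30.2 with butyrate and 35.8 and 50.4 untreated. *Mogat2* and *C3* passed the minimum mean of 50 through the butyrate library at 48 h, which favours a high value there. *Gstp1*, *Srp54a*, *Srp54c*, *Mogat2* and *C3* were named after their values were seen.

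**Figure D2:**
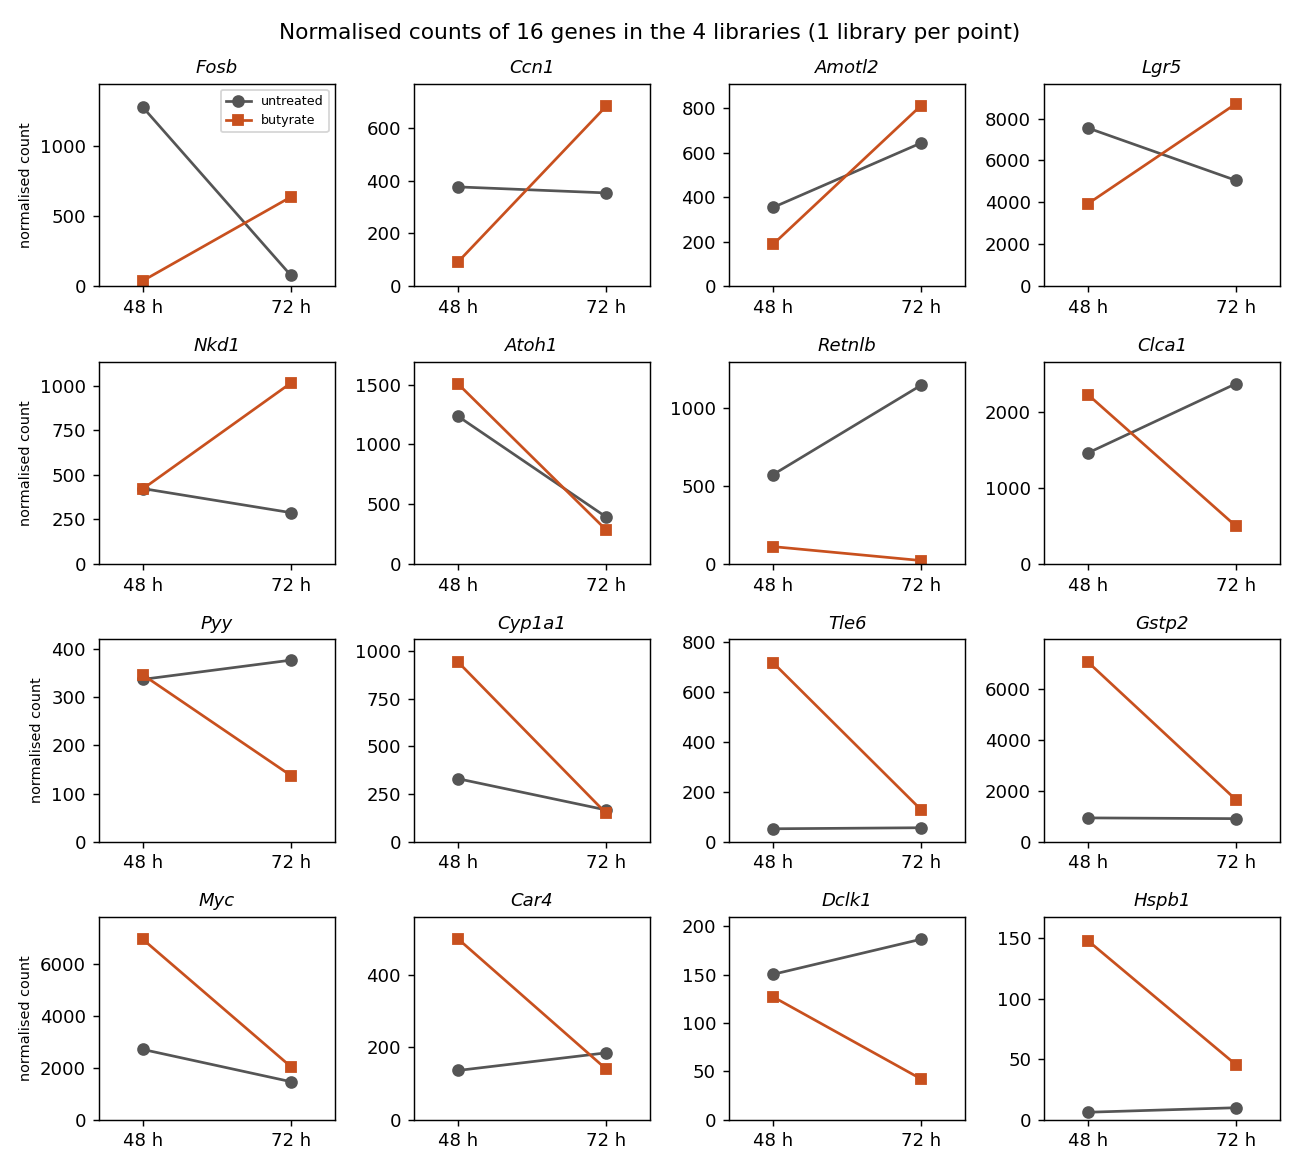
Normalised counts of 16 genes at 48 h and 72 h in untreated (grey circles) and butyrate-treated (orange squares) colonoids, 1 library per point, each panel from 0 on its own scale. *Atoh1*, *Cyp1a1*, *Tle6*, *Gstp2*, *Myc*, *Car4* and *Hspb1* are highest with butyrate at 48 h. *Clca1*, *Lgr5*, *Car4* and *Hspb1* are among the genes that move in opposite directions with and without butyrate.

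Promoter sequences were searched for the letters of a TATA box, the core promoter element that positions the start of transcription in some genes. TATAAA, on either strand, were in 36 of 262 promoter windows of the 207 lower genes with an entry (13.7%), in 10 of 164 windows of the higher genes (6.1%) and in 749 of 11649 windows of all genes tested (6.43%), where a window is the 250 bases before a RefSeq transcription start. Of all windows of that length in the table, genes not tested included, 12.4% held it. The windows of *Ccn1* (chr3:145649986-145650235, minus strand), *Cyp1a1* (chr9:57697363-57697612, plus strand) and *Ly6g6c* (chr17:35067075-35067324, plus strand) are shown 5′ to 3′ in GRCm38.p6, as 1 gene that was higher and 2 that were lower, each with 1 match, and TATAAA is in capitals. In GENCODE, which has a start further upstream for both, the windows of *Cyp1a1* and *Ly6g6c* lie in introns.
Ccn1: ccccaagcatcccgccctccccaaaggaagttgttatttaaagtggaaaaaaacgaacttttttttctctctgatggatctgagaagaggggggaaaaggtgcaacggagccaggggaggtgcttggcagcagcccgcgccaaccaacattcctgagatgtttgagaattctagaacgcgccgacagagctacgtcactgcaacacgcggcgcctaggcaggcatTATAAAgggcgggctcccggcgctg
Cyp1a1: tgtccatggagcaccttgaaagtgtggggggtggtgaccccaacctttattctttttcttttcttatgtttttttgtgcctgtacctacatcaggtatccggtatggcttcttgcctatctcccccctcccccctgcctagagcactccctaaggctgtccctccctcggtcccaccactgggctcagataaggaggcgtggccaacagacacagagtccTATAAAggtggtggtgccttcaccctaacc
Ly6g6c: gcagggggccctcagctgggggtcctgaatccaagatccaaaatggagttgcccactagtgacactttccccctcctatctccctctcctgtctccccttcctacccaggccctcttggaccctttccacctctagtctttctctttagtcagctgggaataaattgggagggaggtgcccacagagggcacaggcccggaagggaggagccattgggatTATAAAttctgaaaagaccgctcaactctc
The match begins 25 bases before the start in *Ccn1* and 30 bases before it in *Cyp1a1* and *Ly6g6c*. The match is a description of letters and was not tested as a binding site.

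Stem cell genes were higher at 72 h than at 48 h with butyrate more often than lower, while in untreated cultures most were lower. Of 15 genes tested on a list of 16, 9 were higher and 5 lower with an interval that excluded 0, and untreated 2 were higher and 10 lower. The list's median was 0.19 (0.14 to 0.23, the medians of the members' bounds) with butyrate and −0.36 untreated, against −0.0089 and −0.0048 over all genes. Adjusted for exon length, as described at the end, the median with butyrate was 0.05. *Lgr5*, the R-spondin receptor that marks crypt stem cells (chr10:115450311-115587780), had 3939 normalised counts at 48 h and 8714 at 72 h with butyrate, and 7546 and 5044 untreated. Its change was 1.15 (1.09 to 1.20) with butyrate and −0.58 (−0.63 to −0.53) untreated, and the highest library was butyrate at 72 h. *Smoc2*, another stem cell gene, had 3359 and 5271 with butyrate, and 4156 and 3239.6 untreated. *Tnfrsf19*, a Wnt target that encodes the receptor TROY, had 292 and 481 with butyrate, and 307 and 286 untreated. Both had their highest value with butyrate at 72 h. *Ascl2* and *Sox9*, transcription factors of the crypt base, were lower at 72 h in both pairs. *Ascl2* had 503 and 268 with butyrate, and 441 and 193 untreated, and *Sox9* had 4493 and 1757 with butyrate, and 4012 and 1949 untreated.

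Of 10 Wnt feedback genes and targets tested on a list of 17, 6 were higher and 2 lower with butyrate, with a median of 0.25 (0.13 to 0.55), and untreated 1 was higher and 6 lower, with a median of −0.33. *Nkd1*, a feedback inhibitor of Wnt signalling, had 421 and 1014 normalised counts with butyrate, and 422 and 287 untreated, a change of 1.27 (1.11 to 1.43). The libraries at 48 h were thus alike and those at 72 h were not. *Axin2*, another feedback inhibitor, had 5475 and 6552 with butyrate, and 6045 and 4258 untreated, and *Sp5*, a transcription factor induced by Wnt, had 268 and 374 with butyrate, and 359 and 205 untreated. *Myc*, a target of Wnt and of growth factors, went the other way, with 6947 and 2041 with butyrate, and 2706 and 1463 untreated, a change of −1.77 (−1.84 to −1.69). Of 13 Notch receptors, ligands and targets tested, 3 were higher and 7 lower with butyrate (median −0.26, or −0.13 after adjustment for exon length) and 1 higher and 8 lower untreated (median −0.51). *Hes1*, the main Notch target in the crypt, had 2456 and 1637 with butyrate and 2843 and 1844 untreated, a difference between the 2 changes of 0.04 (−0.08 to 0.16). The ligand gene *Dll1* had 119 and 119.9 with butyrate and 305 and 123 untreated, so that the untreated library at 48 h was the one apart. The receptor gene *Notch1* had 1609 and 2438 with butyrate and 2566 and 2047 untreated.

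**Figure D3:**
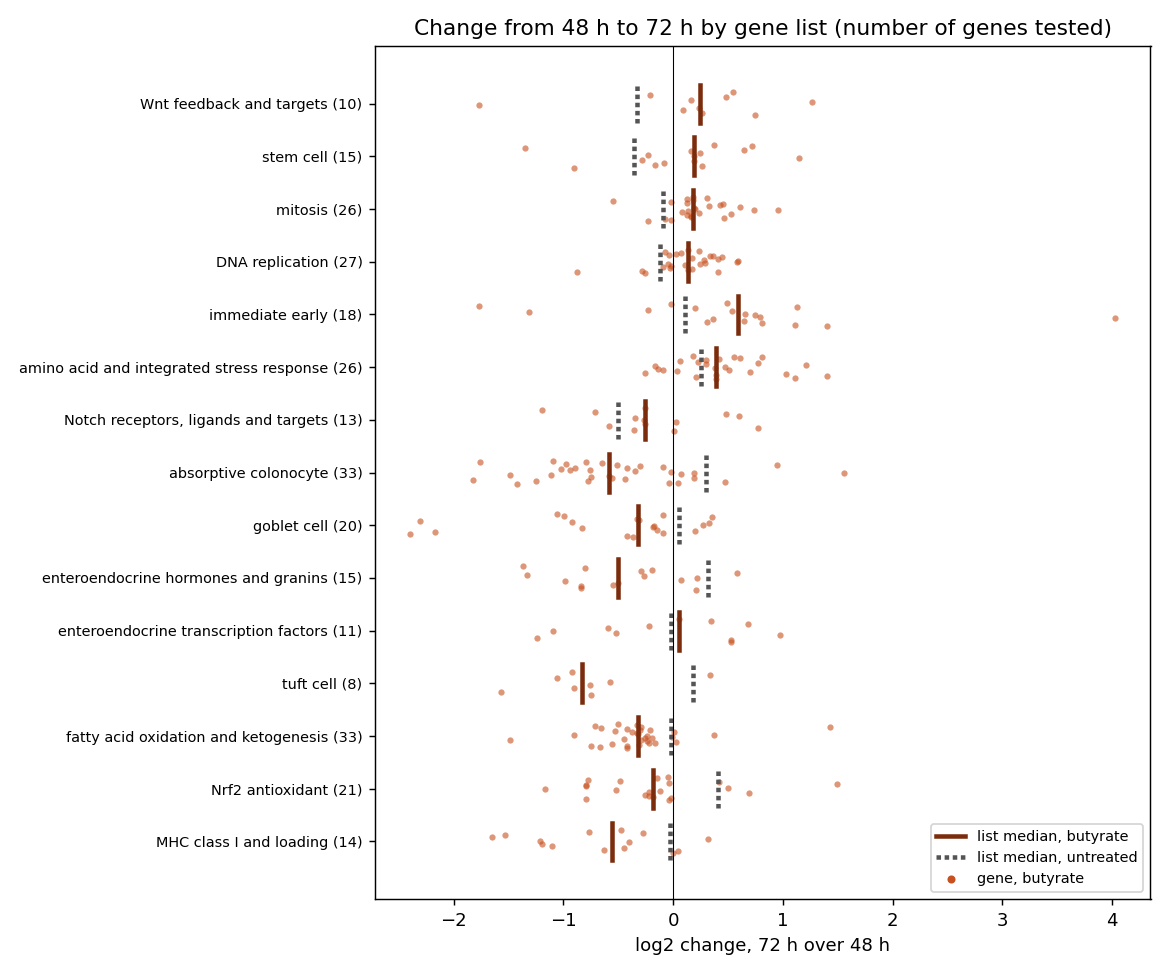
Log2 changes from 48 h to 72 h for 15 gene lists, with 1 orange point per gene for butyrate (vertical spread within a row has no meaning), a solid bar at the butyrate median, a dotted bar at the untreated median and the number of genes tested in brackets. The stem cell, Wnt, mitosis and DNA replication medians lie above 0 with butyrate and below 0 untreated, and those of absorptive, enteroendocrine hormone and tuft genes lie below 0 with butyrate and above 0 untreated.

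Genes of cell division were higher at 72 h with butyrate by small amounts that were shared by most members. Of 26 mitosis genes, 20 were higher and 2 lower with an interval that excluded 0, and untreated 0 were higher and 11 lower. The medians were 0.18 (0.09 to 0.27) and −0.10, and no member differed by 2-fold. *Cenpe*, a kinetochore motor protein gene, had 1241 normalised counts at 48 h and 2407 at 72 h with butyrate, and 1755 and 1626 untreated, a change of 0.96 (0.86 to 1.05). *Cenpf*, which encodes a kinetochore protein, had 1072 and 1786 with butyrate, and 1391 and 1306 untreated, and *Kif23*, a motor protein gene of cytokinesis, had 1776 and 2707, and 2428 and 2448. In each of these, butyrate at 48 h was the lowest library and butyrate at 72 h the highest. *Mki67*, the gene of the proliferation antigen Ki-67, had 12530.5 and 16899 with butyrate, and 12058 and 12331 untreated. *Pttg1*, which encodes securin, went the other way, with 366 and 249 with butyrate and 251 and 230.1 untreated. Of 27 DNA replication genes, 16 were higher and 3 lower with butyrate (median 0.13) and 0 higher and 13 lower untreated (median −0.12). The helicase genes *Mcm5*, with 1923 and 2899 with butyrate and 2358 and 2329 untreated, and *Mcm4*, with 1919.8 and 2871, and 2337 and 2287, had the highest changes. Of 18 cell cycle inhibitor and p53 target genes, 9 were higher and 6 lower with butyrate (median 0.12, or 0.24 after adjustment for exon length), and 5 were higher and 5 lower untreated (median −0.01). The inhibitor gene *Cdkn1a* had 5108 and 3903 with butyrate and 2629 and 3412 untreated, and *Cdkn1c* had 307 and 188, and 125 and 254, so that both went in opposite directions in the pairs.

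Promoters of mitosis genes are known to carry CCAAT boxes beside an element called CHR. Windows of 3 members are shown, and not all of them hold the CHR letters. CCAAT, on either strand, was in 19 of 23 windows of 22 mitosis genes (82.6%) in 35.6% of the windows of all genes tested and in 33.8% of all windows in the table. It was also in 26.2% of the windows of the genes at least 2-fold higher, 42.4% of those at least 2-fold lower and 84.2% of those of sterol synthesis genes. The CHR letters TTTGAA, which are also part of the TCF/LEF letters CTTTGAAC, were in 8 of the 23 (34.8%), against 10.6% and 16%, and the CHR form TTCGAA was in 2 (8.7%), against 1.76% of the windows tested. The windows of *Kif23* (chr9:61946800-61947049), *Cenpf* (chr1:189688087-189688336) and *Ccnb2* (chr9:70421555-70421804), all on the minus strand, are printed 5′ to 3′ with these letters in capitals. *Ccnb2*, the gene of cyclin B2, had 952 and 1368 normalised counts with butyrate, and 1214 and 1062 untreated.
Kif23: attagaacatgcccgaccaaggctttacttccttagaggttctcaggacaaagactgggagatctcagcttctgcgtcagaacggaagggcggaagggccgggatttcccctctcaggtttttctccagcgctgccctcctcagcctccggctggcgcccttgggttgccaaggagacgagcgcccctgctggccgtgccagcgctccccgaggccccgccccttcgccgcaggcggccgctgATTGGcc
Cenpf: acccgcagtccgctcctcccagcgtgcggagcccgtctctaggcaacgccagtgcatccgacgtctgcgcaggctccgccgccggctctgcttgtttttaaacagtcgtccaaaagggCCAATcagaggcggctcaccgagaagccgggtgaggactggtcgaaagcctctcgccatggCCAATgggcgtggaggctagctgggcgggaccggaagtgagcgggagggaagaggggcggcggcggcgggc
Ccnb2: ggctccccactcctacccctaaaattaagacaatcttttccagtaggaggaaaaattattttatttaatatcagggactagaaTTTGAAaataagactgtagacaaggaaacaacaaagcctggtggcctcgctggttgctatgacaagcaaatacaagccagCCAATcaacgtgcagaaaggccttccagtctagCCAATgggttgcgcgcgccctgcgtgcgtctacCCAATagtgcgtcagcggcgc
*Ccnb2* holds 3 CCAAT boxes and 1 TTTGAA, *Cenpf* holds 2 CCAAT boxes, and *Kif23* holds 1 on the opposite strand, where it reads ATTGG. These are descriptions of letters in these windows and were not tested as binding sites.

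Genes of absorptive colonocytes were lower at 72 h with butyrate and higher untreated. Of 33 genes tested on a list of 36, 24 were lower and 5 higher with butyrate, 8 of them at least 2-fold lower and 1 at least 2-fold higher, and untreated 5 were lower and 25 higher. The medians were −0.59 (−0.65 to −0.52) and 0.30. *Car4*, a membrane carbonic anhydrase gene, had 499.9 normalised counts at 48 h and 140.4 at 72 h with butyrate, and 136 and 185 untreated, a change of −1.82 (−2.12 to −1.55). *Car1*, a cytosolic carbonic anhydrase gene, had 44919.6 and 18849.9 with butyrate, and 20390.2 and 34634 untreated. *Slc26a3*, the chloride and bicarbonate exchanger of the colon, had 7449.7 and 3778 with butyrate, and 3050.2 and 4329.7 untreated. In these genes the butyrate library was the highest of the 4 at 48 h and lay below the untreated one at 72 h. *Alpi*, the intestinal alkaline phosphatase gene, had 539 and 201 with butyrate, and 363 and 587 untreated, and *Krt20*, a keratin gene of mature cells, had 2989 and 1554, and 2418 and 2604. Against the list, *Gsdmc2*, of the gasdermin family, had 78 and 232 with butyrate, and 206 and 375 untreated, and the water channel gene *Aqp8* had 519.9 and 723, and 492 and 738. Over the list, the median of butyrate over untreated was 0.31 at 48 h and −0.39 at 72 h. Of 10 colonic and intestinal transcription factor genes, 4 were higher and 5 lower with butyrate, with a median of −0.12 that was 0.00585 after thinning to equal totals, and 4 were higher and 4 lower untreated. *Hoxb13* had the lowest change of them, with 79.8 and 14 with butyrate, and 67.5 and 47.4 untreated, and *Gata4* had the highest, 0.91. The minimum mean was applied again after thinning, and *Hoxb13* was near it. The medians before and after thinning therefore need not cover the same genes. *Cdx2* had 5676 and 4059 with butyrate, and 5199.5 and 4547 untreated.

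Secretory lineage genes were mostly lower at 72 h with butyrate. *Atoh1* (chr6:64729125-64731245) had 1508 normalised counts at 48 h and 286 at 72 h with butyrate, and 1236 and 394 untreated, so that it was lower at 72 h in both pairs, by −2.39 (−2.59 to −2.21) and −1.65 (−1.82 to −1.49). Of 20 goblet cell genes, 12 were lower and 4 higher with butyrate, with 4 at least 2-fold lower, and 7 were lower and 10 higher untreated. The medians were −0.32 (−0.40 to −0.22), or −0.16 after adjustment for exon length, and 0.06. *Clca1*, a protein secreted with mucus, had 2223 and 495 with butyrate, and 1459 and 2369 untreated, and *Retnlb*, which encodes the antibacterial protein RELMβ (chr16:48816856-48818892), had 111 and 21.6, and 572 and 1143. *Tff3*, a trefoil factor gene, had 6148 and 3090.0 with butyrate, and 3602 and 4835 untreated. *Muc2*, the gene of the main gel-forming mucin, was higher at 72 h in both pairs, with 52053 and 65482 with butyrate and 73062 and 119430.0 untreated. Of 9 genes of Paneth and deep crypt secretory cells, 7 were lower and 2 higher with butyrate (median −0.75), and 6 were lower and 0 higher untreated (median −0.36). The list's median with butyrate was −0.35 with a mean of at least 200 normalised counts and with the filter of the study's methods. *Reg4*, the marker gene of deep crypt secretory cells, had 1324 and 699.9 with butyrate, and 1126 and 336 untreated. *Itln1*, an intelectin gene, had 3379 and 779.8 with butyrate, and 3918 and 1723 untreated, and was lower at 72 h in both.

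Of 15 enteroendocrine hormone and granin genes tested on a list of 22, 8 were lower and 2 higher with butyrate, and 0 were lower and 9 higher untreated, with medians of −0.50 (−0.70 to −0.25), or −0.27 after adjustment for exon length, and 0.32. *Pyy*, the L-cell hormone gene, had 346 and 137 normalised counts with butyrate, and 336 and 376 untreated, a change of −1.33 (−1.63 to −1.04). *Gcg*, which encodes proglucagon, had 1365 and 962 with butyrate, and 1339.5 and 1667 untreated, and *Insl5*, another L-cell hormone gene, had 213 and 107, and 272 and 298. For *Pyy* and *Gcg* the libraries at 48 h were close, and the butyrate library at 72 h was the single low one. *Tph1*, the serotonin synthesis enzyme gene of enterochromaffin cells, had 199.6 and 76.7 with butyrate, and 84.9 and 160.0 untreated. *Chga*, the gene of chromogranin A, had 1668 and 932 with butyrate, and 1594 and 1912 untreated. The 11 enteroendocrine transcription factor genes tested did not share this direction, since 5 were higher and 4 lower with butyrate, and 1 was higher and 3 lower untreated. *Neurog3*, which starts the endocrine programme, was lower at 72 h in both pairs, with 465 and 217 with butyrate and 433 and 179 untreated. *Insm1*, which acts after it, had 129.7 and 256 with butyrate, and 341 and 363 untreated. *Ffar2*, the receptor gene, had 76.2 and 34.6 with butyrate, and 142 and 90.8 untreated.

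Tuft cell genes had, of the 15 lists plotted, the lowest median with butyrate, −0.83 (−1.24 to −0.39), and one of 0.18 untreated. Of 8 genes tested on a list of 18, 7 were lower with butyrate and 0 higher, and untreated 1 was higher and 0 lower. *Dclk1*, a kinase gene used as a tuft marker, had 127 and 42.1 normalised counts with butyrate, and 150.3 and 187 untreated, a change of −1.57 (−2.14 to −1.07). *Trpm5*, a cation channel gene of chemosensory cells, had 56.3 and 29.2, and 77.7 and 95.8, and *Pou2f3*, the transcription factor that specifies these cells, had 66.2 and 31.3, and 77.7 and 62.2. The butyrate library at 72 h was the lowest for *Dclk1*, *Trpm5* and *Pou2f3*. Their counts are low, and 10 listed genes were under the count minimum.

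Genes of fatty acid oxidation and ketone synthesis, the pathways through which colonocytes use butyrate, were lower at 72 h with butyrate in 28 of 33 tested and higher in 2, with a median of −0.32 (−0.42 to −0.22), and in the untreated pair 10 were lower and 8 higher (median −0.02). The changes were small, and 1 gene in each direction passed 2-fold. *Cpt1a*, which takes long-chain fatty acids into mitochondria, had 2823 and 2072 with butyrate, and 2204 and 2464 untreated, and was highest with butyrate at 48 h. *Angptl4*, a target of PPAR receptors, had 473 and 168 with butyrate, and 107 and 77 untreated. *Pdk4*, a kinase gene whose product restrains pyruvate oxidation, was 1 of the 2 that were higher, with 32.7 and 89.6 with butyrate, and 50.1 and 107 untreated. Over the list, the median of butyrate over untreated was 0.35 at 48 h and −0.01 at 72 h. *Slc16a1*, the monocarboxylate transporter that carries butyrate, had 5242 and 3816 with butyrate, and 3040.0 and 3048 untreated.

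Among 21 Nrf2 antioxidant genes, 13 were lower and 4 higher with butyrate (median −0.18), and untreated 1 was lower and 19 higher (median 0.41). The difference between the changes was below 0 for 19 of the 21 with intervals that excluded 0, and above 0 for 0, where those shares were 26% and 28.2% of all genes. *Gclc*, the catalytic subunit of glutathione synthesis, had 4952 and 4359 with butyrate, and 3507 and 7257 untreated, and *Nqo1*, a quinone reductase gene, had 1009 and 581, and 823 and 1155. Untreated at 72 h was the highest library for both. *Osgin1* was higher in both pairs, with 281 and 792, and 230.1 and 854. Of 20 xenobiotic and Ahr genes, 11 were lower and 6 higher with butyrate (median −0.34, or −0.22 after adjustment for exon length), and 5 were lower and 12 higher untreated (median 0.24). *Ugt2b5*, a glucuronosyltransferase gene, had 391 and 119 with butyrate, and 222 and 257 untreated, and *Cyp1b1*, which like *Cyp1a1* is induced through the aryl hydrocarbon receptor, had 725 and 323, and 427 and 217.

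Genes of antigen presentation were mostly lower, and those of heat shock were divided. Of 14 MHC class I and loading genes, 10 were lower and 1 higher with butyrate, with 5 at least 2-fold lower and a median of −0.55 (−0.63 to −0.46), against −0.03 untreated. *Psmb8*, an immunoproteasome subunit gene, had 461 and 146 with butyrate, and 44 and 43.4 untreated, and *H2-Q2* had 1426 and 621, and 771 and 862. Class I genes have near copies, and their counts depend on how reads were shared. *B2m*, the common light chain, had 6016 and 6026 with butyrate. *Cd74*, the class II invariant chain gene, had 1009 and 490.3 with butyrate, and 152 and 72.1 untreated, so that both pairs were lower at 72 h and the butyrate libraries were higher at each time. Of 12 heat shock genes, 7 were higher and 5 lower with butyrate, and 7 were higher and 1 lower untreated. *Hspb1*, a small chaperone gene, had 148 and 45.4 with butyrate, and 6.14 and 9.87 untreated, a change of −1.68 (−2.23 to −1.21), and passed the minimum mean of 50 through the library at 48 h with butyrate. *Hspa1a*, which encodes an inducible HSP70, had 418 and 198, and 263 and 439, and has a near copy in *Hspa1b*. Of 11 antimicrobial genes, 4 were higher and 7 lower with butyrate, with a median of −0.37 (−0.45 to −0.32) that became −0.19 after adjustment for exon length, and 4 were higher and 5 lower untreated. The C-type lectin gene *Reg3b* had 16.3 and 45.4 with butyrate, and 70.6 and 120.5 untreated, *Reg3g* had 20.9 and 55.1, and 69.5 and 78, and *Wfdc2* had 410.1 and 994, and 271 and 295. These 3 were higher at 72 h with butyrate, in contrast to *Retnlb* and *Itln1* above.

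Higher at 72 h with butyrate were most genes of the amino acid and integrated stress response, 20 higher and 2 lower of 26, with a median of 0.39 (0.25 to 0.48), and untreated 17 were higher and 2 lower, with a median of 0.25. *Atf5*, a transcription factor gene of this response, had 587 and 1199 with butyrate, and 1445 and 1411 untreated, and *Aldh1l2*, a mitochondrial folate enzyme gene, had 216 and 468, and 369 and 419. For these 2 genes butyrate at 48 h was the low library. *Atf3*, a stress-induced factor, was higher in both pairs, with 162 and 432, and 232 and 551. Of 18 immediate early genes, 14 were higher and 3 lower with butyrate, 4 of them at least 2-fold higher and 2 at least 2-fold lower, with a median of 0.59 (0.50 to 0.67), and 9 were higher and 6 lower untreated, with the same 2-fold numbers of 4 and 2 and a median of 0.10. *Fos*, of the same family as *Fosb*, had 1270.2 and 1631 with butyrate, and 3380.5 and 946 untreated, so that the untreated library at 48 h was the highest for *Fos* as for *Fosb*. *Klf6* and *Dusp1* were higher at 72 h in both pairs, with changes of 1.13 and 1.11 with butyrate and 1.49 and 1.26 untreated. Of 20 genes of histone deacetylases, acetyltransferases and butyrate sensing, 9 were higher and 6 lower with butyrate, and 5 were higher and 4 lower untreated. *Hdac1* had 6442 and 4085 with butyrate, and 3238 and 3344 untreated, *Hdac7* had 311 and 704, and 533 and 509, and the acetyltransferase gene *Crebbp* had 1358 and 2804, and 1953 and 2758. Butyrate at 48 h was the highest library for *Hdac1* and the lowest for *Hdac7* and *Crebbp*.

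The change over time differed at least 2-fold between the pairs for 600 genes (5.15%), with 192 more positive (1.65%) and 408 more negative (3.5%) with butyrate. The most negative difference among the ranked genes was that of *Retnlb*, −3.30 (−4.02 to −2.64), followed by *Slc13a2*, a citrate transporter gene, at −2.87 (−3.39 to −2.37), and *Clca1*, at −2.86 (−3.04 to −2.69). *Slc13a2* had 209.6 and 67 normalised counts with butyrate, and 116 and 274 untreated. *Sis*, which encodes the brush border enzyme sucrase-isomaltase, had 768 and 586 with butyrate, and 432 and 2327 untreated, so that its difference of −2.82 (−3.03 to −2.60) lay mostly in the untreated pair. The esterase gene *Ces1g* had 576 and 260.3 with butyrate, and 147 and 359 untreated. In *Slc13a2* and *Ces1g* butyrate was above untreated at 48 h and below it at 72 h. On the positive side, after *Fosb* and *Ccn1*, came *Gpld1* at 2.46 (2.17 to 2.75) and *Ifitm1*, an interferon-induced membrane protein gene, at 2.40 (1.58 to 3.27), which had 109.8 and 297 with butyrate, and 37.8 and 18.8 untreated. *Pde2a*, a cyclic nucleotide phosphodiesterase gene, had 269 and 589 with butyrate, and 1066 and 587 untreated. *Dennd1c*, a regulator of Rab GTPases, had 78.9 and 153 with butyrate, and 117 and 56.3 untreated.

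The changes moved with transcript length. Over 11602 genes with an annotation, the change from 48 h to 72 h had a Spearman correlation with exon length, the summed length of a gene's exons, of 0.334 with butyrate and of 0.124 untreated. Among 10 groups of genes ordered by exon length, that with the shortest exons had a median of −0.21 with butyrate and −0.04 untreated, and that with the longest had 0.23 and 0.06. The median exon length was 2849.5 bases for the 292 lower genes, 4208 for the 193 higher ones and 4482 for all. Some lists share this property, since the absorptive colonocyte genes had a median exon length of 2478 bases, the goblet genes 2204.5, the enteroendocrine hormone genes 2193 and the stem cell genes 6776. After subtracting from each change the median of genes of like exon length, an adjustment chosen after the data were seen, the median with butyrate was −0.48 for absorptive genes, 0.26 for Wnt genes, 0.20 for mitosis, −0.83 for tuft cells, −0.25 for fatty acid oxidation and −0.47 for MHC class I. Each of these kept its sign and moved by less than 1.5 times. Among the other lists, some medians moved by as little, such as that of immediate early genes, from 0.59 to 0.65. Others moved by more, as given beside several of them, and that of the epithelial markers was −0.16 before and −0.02 after. Short transcripts include those of the 78 cytosolic ribosomal proteins, with a median of −0.12 before and 0.05 after, and of 85 nuclear respiratory chain genes, with −0.24 and −0.07. The part that length or RNA quality plays in the results was not tested.

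**Figure D4:**
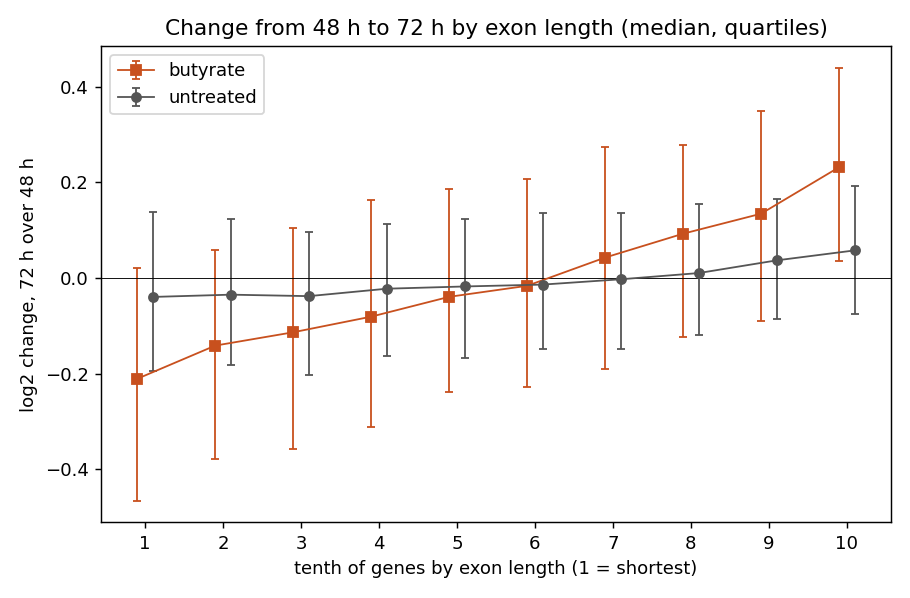
Median log2 change from 48 h to 72 h in 10 equal groups of the 11602 annotated genes ordered by exon length, with bars from the lower to the upper quartile, for butyrate (orange squares) and untreated (grey circles). The butyrate medians go from −0.21 in the group with the shortest exons to 0.23 in that with the longest, and the untreated medians from −0.04 to 0.06.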

How the data were processed

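RNA from colonoids was enriched for poly-A, made into TruSeq libraries, and the authors deposited whole-number counts per gene for 4 libraries. Reads had been quantified with a kallisto-based pipeline and summed to genes with tximport, so the counts are rounded estimates. The submitters' processing notes name kallisto 0.44.0 and GRCm38.p6. The labels give the genotype as WT, whereas the legend that gives a single mouse of origin names it as Hes1-GFP. Samples were assigned to groups by their labels.

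Counts were divided by DESeq2 1.42.0 size factors (0.978 and 1.01 for untreated and 1.10 and 0.926 for butyrate, at 48 h and 72 h) in R 4.3.3, and the rest was computed in Python 3.11.15. A pseudocount of 1 was added before log2 ratios were taken, which understates the change of low genes. Genes averaging at least 50 normalised counts over the 4 libraries were kept, other than 4 rows under 2 names listed more than once. Intervals are exact Clopper-Pearson intervals on the pair of counts at the 95% level, and for the difference between pairs Wald intervals on counts plus 0.5. As no molecular identifiers were used, reads cannot be taken for separate molecules, and intervals cover counting error only. A floor of 3 counts corresponds to between 2.72 and 3.24 normalised counts. No p-values were computed, since each condition has 1 library. Steps were tested on simulated data.

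Named genes were the 15 highest and 15 lowest by change and the 10 highest and 10 lowest by difference among 10404 genes with a mean of at least 100, without predicted names, and members of 37 gene lists. A few of the genes that this rule names are not reported here. Members and lists were chosen with earlier results of these data known. Positions and exon lengths came from GENCODE M21 (GRCm38), matched by symbol for 11602 of 11650 genes, and promoters from RefSeq (GRCm38.p6), of which 9100 of the tested genes had an entry. Motifs were searched on both strands. The alternatives were scaling by edgeR 4.0.16 TMM or by total count, a pseudocount of 5, thinning to the smallest total (20 draws), other count minimums, the filter of the study's methods (over 10 counts in at least 2 libraries) and, chosen after seeing the data, changes less the median of 50 bins of exon length.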

Additional observations from a re-analysis of the deposited data

Results flagged for a closer look

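Among the named genes reported here, 4 were at least 2-fold different between 48 h and 72 h in opposite directions with and without butyrate. The difference of the log2 changes, butyrate minus untreated, was 8.08 for *Fosb*, −2.87 for *Slc13a2*, −2.53 for *Cyp2c69* and −2.42 for *Ces1g*. *Fosb*, of the AP-1 family, was higher at 72 h with butyrate and lower untreated, and the other 3 genes, which act in transport and detoxification, were lower with butyrate and higher untreated. *Cyp2c69*, a cytochrome P450 gene, had 156 and 65.9 normalised counts with butyrate, and 102 and 253 untreated. With 1 library per condition these differences were not tested, and a difference between single cultures cannot be told apart from one between treatments.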

How the results depend on the processing

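No paired analysis was possible because there are no replicates to pair, and no library could be left out. With a mean of at least 20 normalised counts, 334 genes were at least 2-fold higher and 493 lower with butyrate, 184 higher and 164 lower untreated, and 1003 differed between the pairs. With a mean of at least 200 the numbers were 87, 111, 34, 29 and 253, and with the filter of the study's methods 513, 692, 372, 255 and 1472, in the same order; these settings test other numbers of genes. Other scalings, a pseudocount of 5, thinning and the length adjustment kept each of the 5 numbers within 1.5 times, with 172 to 199 genes higher and 256 to 314 lower with butyrate. Total count scaling moved the median change of all genes to −0.041 with butyrate and −0.083 untreated.

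Of 272 recomputed list medians, 256 stayed within the medians of the members' bounds, which are not an interval of the list median itself. Total count scaling gave −0.193 for epithelial, −0.205 for glycolysis and 0.0348 for heat shock genes. Thinning gave 0.00585 for colonic and intestinal transcription factors, a change of sign. For enteroendocrine transcription factors, with a main median of 0.0535, it gave −0.0717, also a change of sign. The enteroendocrine factors were −0.233, again of changed sign, with a mean of at least 200, and 0.400 with the filter of the methods. The first of these minimums gave −0.652 for absorptive and −0.447 for MHC class I genes. The length adjustment gave −0.0227 for epithelial, 0.0489 for stem cell, −0.476 for absorptive, −0.162 for goblet, −0.182 for fatty acid synthesis, −0.186 for antimicrobial and −0.0281 for matrix genes, the last a change of sign. Count minimums change which genes are tested, and the causes of the other changes were not tested. Of 613 named genes, none that differed at least 2-fold with butyrate changed sign under these settings, and 25 left their counting interval with total count scaling and 235 with the length adjustment.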

Other observations

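Of 27 extracellular matrix and junction genes, 14 were higher and 8 lower at 72 h with butyrate, with a median of 0.22 that became −0.03 after adjustment for exon length, and 17 were higher and 4 lower untreated, with a median of 0.19. *Col4a1*, a basement membrane collagen gene, had 310.3 and 532 normalised counts with butyrate, and 268 and 328 untreated. *Cdh3*, which encodes P-cadherin, had 259 and 127 with butyrate, and 12.3 and 14.8 untreated, so that the butyrate libraries were above the untreated ones at both times. Of 8 zinc and metallothionein genes, 6 were lower and 1 higher with butyrate, and 3 were lower and 2 higher untreated. *Mt2*, a metallothionein gene, had 5324 and 2485 with butyrate, and 3344 and 2905 untreated.

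Of 24 sterol synthesis genes, 11 were lower, 4 were higher and 9 had an interval that included 0 with butyrate (median −0.08, −0.18 to 0.01), and 19 lower and 1 higher untreated (median −0.21). Of 24 regenerative and fetal-like genes, 14 were higher and 8 lower with butyrate (median 0.17), and 18 were higher and 2 lower untreated (median 0.26). Of 18 NF-kB and chemokine genes, 7 were higher and 7 lower with butyrate, and 6 were higher and 1 lower untreated. *Duoxa2*, which matures a dual oxidase, had 124 and 43.2 with butyrate, and 119 and 106 untreated. *Irf7*, an interferon regulatory factor gene, had 442 and 215, and 267 and 196.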
